A study of Mus musculus with 6 samples.

Results

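Immunoglobulin transcripts were followed in RNA of Treg cells, the regulatory CD4 T cells defined by Foxp3, sorted from mouse colonic lamina propria. They were taken as every row whose symbol begins with Ighv, Igkv or Iglv (the variable segments of the heavy, kappa and lambda chains), together with Igkc, Iglc1, Iglc2, Iglc3, Ighm, Igha and Jchain. This gave 222 of the 32161 rows: 77 Ighv, 135 Igkv and 3 Iglv segments and 7 constant or joining-chain rows. Counts were present in some library for 135 rows, and 87 variable segments were at 0 in all 6 libraries.

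Antibodies are made by B cells and, in bulk, by plasma cells, which fill the gut lamina propria and secrete mainly IgA. In these cells a variable segment is joined by recombination to a short J segment (and a D segment in the heavy chain), so that a clone of plasma cells uses a single heavy and a single light variable segment. T cells rearrange their receptor genes and not, as a rule, their immunoglobulin genes. The source of the immunoglobulin RNA in these libraries was not tested.

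The KO group held Treg cells from untreated C57/BL6 mice with floxed Il23r alleles (the interleukin-23 receptor) and Foxp3-YFP-Cre, a YFP-tagged Cre recombinase under Foxp3. The WT group came from untreated mice of the same strain with Foxp3-YFP-Cre alone. Both groups thus carried the Cre, which is driven in Foxp3-expressing cells. The gate was live CD45+ CD4+ Foxp3+. Each group had 3 libraries, each from a pool of at least 5 mice, and RNA was amplified from small amounts before sequencing.

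Total estimated counts lay between 16171278 and 20654340 in the KO libraries and between 9680503 and 18734331 in the WT libraries. Il23r was at 18.4, 4.98 and 8.95 CPM (counts scaled to the TMM-adjusted library size) in KO1, KO2 and KO3, against 19.4, 38.3 and 13.6 CPM in WT1, WT2 and WT3. The library labelled KO1 was thus inside the WT range. Xist, the RNA of the inactive X chromosome, had 116560 counts over KO and 6 over WT, so sex and genotype cannot be told apart in any comparison. WT2 had an RNA integrity number of 5, against 7.9 to 8.8 in the others. KO1 and WT1 shared sort batch A, WT2 and WT3 shared batch B, and KO2 and KO3 were sorted in batches C and D. KO2 and KO3 resembled each other far more than any other libraries did, as described below from their segment usage.

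The kappa segments Igkv1-110 and Igkv1-117 were the most abundant variable segment in 3 libraries each, so their sequences are shown first. Both lie on the plus strand of chromosome 6 (GRCm38, GENCODE M21), Igkv1-110 at chr6:68270485-68271267 and Igkv1-117 at chr6:68121046-68121827, and each has 2 exons. Their coding sequences of 359 bases differ at 10 positions, an identity of 97.2%. The last 300 bases are printed, which hold all 10 differences, in capitals.
Igkv1-110: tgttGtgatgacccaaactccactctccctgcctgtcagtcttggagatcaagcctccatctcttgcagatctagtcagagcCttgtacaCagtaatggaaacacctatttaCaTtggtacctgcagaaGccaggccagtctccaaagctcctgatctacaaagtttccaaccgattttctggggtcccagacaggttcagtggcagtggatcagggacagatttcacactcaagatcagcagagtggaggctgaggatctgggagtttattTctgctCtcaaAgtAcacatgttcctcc
Igkv1-117: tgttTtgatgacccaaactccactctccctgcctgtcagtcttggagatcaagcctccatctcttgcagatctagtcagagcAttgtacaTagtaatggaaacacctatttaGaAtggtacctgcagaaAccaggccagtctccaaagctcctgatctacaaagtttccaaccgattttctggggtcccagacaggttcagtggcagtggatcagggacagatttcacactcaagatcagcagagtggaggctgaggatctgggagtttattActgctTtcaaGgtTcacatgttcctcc

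Most of the differences sit in short clusters, with long identical stretches between them. Of the distinct stretches of 31 bases in each transcript, 36.4% of those of Igkv1-110 and 37.4% of those of Igkv1-117 were private. Private here means found in no other variable segment of the table, and relatives without a row there may share more. A read from the shared stretches can be divided between such segments in more than 1 way, so the count of a segment with close relatives is less certain than that of its pair or subgroup. All 215 variable segments of the table matched the annotation by symbol. Over the 128 with counts the median share of such private stretches was 61.0%, 47 segments were under 50%, and 33 were over 90%.

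The segments that led the heavy and lambda chains are shown by the last 60 coding bases, the part that in a rearranged gene runs into the J or D segment. The capitals mark the last in-frame cysteine codon, which ends the conserved framework before the hypervariable joint. Ighv segments lie on the minus strand of chromosome 12, and Iglv1 lies on the minus strand of chromosome 16.
Ighv1-53 (chr12:115158403-115158835): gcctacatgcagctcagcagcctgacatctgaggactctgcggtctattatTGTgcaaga
Ighv1-64 (chr12:115507545-115508031): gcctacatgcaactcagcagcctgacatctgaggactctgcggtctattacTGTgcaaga
Ighv2-2 (chr12:113588267-113588702): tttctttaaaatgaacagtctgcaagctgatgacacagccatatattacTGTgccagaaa
Ighv9-3 (chr12:114140692-114141122): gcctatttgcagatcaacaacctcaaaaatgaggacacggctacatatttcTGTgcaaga
Iglv1 (chr16:19085017-19085500): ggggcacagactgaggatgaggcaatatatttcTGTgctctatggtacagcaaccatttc

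Ighv1-53 and Ighv1-64 differ at 16 of 351 coding bases, an identity of 95.4%. Ighv2-2 shared no stretch of 31 bases with another variable segment of the table, so that 100% of its stretches were private in this sense.

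Immunoglobulin rows together made up 0.498%, 0.416% and 0.382% of all counts in KO1, KO2 and KO3, against 0.327%, 0.841% and 1.17% in WT1, WT2 and WT3. The 95% Wilson intervals, which cover counting error only, were narrow beside these differences, for example 0.379% to 0.385% in KO3 and 0.324% to 0.331% in WT1. The KO libraries lay close together, whereas the WT libraries held both the lowest and the highest value of the series. In absolute numbers the rows summed to 102905, 72784 and 61728 counts in KO1, KO2 and KO3, and to 33381, 81377 and 218328 counts in WT1, WT2 and WT3.

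Scaled to library size, the sum was 4575, 4421 and 3863 CPM in KO1, KO2 and KO3, against 3143, 8351 and 12367 CPM in WT1, WT2 and WT3. The mean was 4287 ± 375 CPM in KO and 7953 ± 4625 CPM in WT (SD, n = 3 each), a log2 ratio of KO over WT of -0.89. The groups overlapped, because WT1 lay below every KO library. Within sort batch A, the only batch with both groups, KO1 was higher than WT1, with a log2 ratio of 0.54. The sum is given without a test. In bulk RNA, fewer cells of a type and less RNA per cell cannot be told apart.

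**Figure D1:**
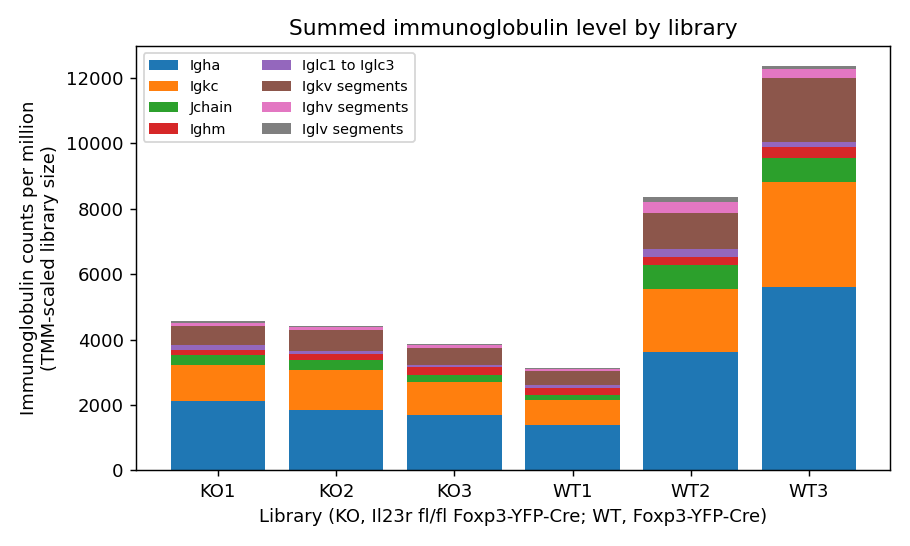
Summed immunoglobulin level in each library, in CPM, stacked by Igha, Igkc, Jchain, Ighm, the lambda constants and the 3 classes of variable segment. The KO libraries reach 3863 to 4575 CPM, between the 3143 CPM of WT1 and the 12367 CPM of WT3.

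The constant rows and Jchain held the larger part of these counts. Variable segments took 16.0%, 17.3% and 16.5% of the immunoglobulin counts in KO1, KO2 and KO3, against 16.9%, 18.9% and 18.8% in WT1, WT2 and WT3. This share was 16.6 ± 0.67% in KO and 18.2 ± 1.13% in WT (SD, n = 3 each), with overlap between the groups.

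Igha, the constant region of the IgA heavy chain, was the most abundant row in every library. It stood at 2115, 1845 and 1675 CPM in KO1, KO2 and KO3, against 1397, 3628 and 5613 CPM in WT1, WT2 and WT3. KO over WT, its log2 fold change stood at -0.92 (SE 0.40; edgeR, adjusted p = 0.529), short of the threshold. Ighm, the constant region of IgM, was at 174, 204 and 249 CPM in KO1, KO2 and KO3, against 221, 247 and 329 CPM in WT1, WT2 and WT3, a narrower range than that of Igha. Its log2 fold change was -0.35 (SE 0.22; edgeR, adjusted p = 0.646), and the groups overlapped. IgA made up most of the 2 heavy chains: Igha held 92.4%, 90.1% and 87.1% of the Igha and Ighm counts in KO1, KO2 and KO3, against 86.35%, 93.6% and 94.5% in WT1, WT2 and WT3.

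Jchain, the joining chain that links IgA dimers and IgM pentamers, followed Igha from library to library. It was at 305, 292 and 212 CPM in KO1, KO2 and KO3, against 160, 717 and 718 CPM in WT1, WT2 and WT3. WT2 and WT3 stood above every other library and WT1 below. The log2 fold change was -0.98 (SE 0.47; edgeR, adjusted p = 0.548).

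Igkc, the kappa constant region, was at 1096, 1227 and 1012 CPM in KO1, KO2 and KO3, against 744, 1931 and 3221 CPM in WT1, WT2 and WT3. Its log2 fold change was -0.82 (SE 0.42; edgeR, adjusted p = 0.569). Iglc1, the most abundant of the lambda constants, was at 116, 74.4 and 67.0 CPM in KO1, KO2 and KO3, against 79.9, 237 and 130 CPM in WT1, WT2 and WT3 (log2 fold change -0.79, SE 0.38; edgeR, adjusted p = 0.551). Here WT2 was the highest library, not WT3. Iglc2 was at 6.51 to 10.9 CPM in KO and 5.85 to 25.4 CPM in WT, with a log2 fold change of -0.64 that became 0.30 without WT3. Iglc3 ran the other way through a single library: it was at 25.9 CPM in KO1, against 4.92 and 2.82 CPM in KO2 and KO3 and 3.01 to 8.83 CPM in WT, and its log2 fold change of 0.79 was -0.75 without KO1.

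Light chains were mainly kappa, as is usual in the mouse. Igkc held 87.7%, 93.4% and 93.0% of the light-chain constant counts in KO1, KO2 and KO3, against 89.1%, 88.5% and 95.2% in WT1, WT2 and WT3. The mean was 91.4 ± 3.15% in KO and 90.9 ± 3.71% in WT (SD, n = 3 each). Igkv segments gave nearly the same picture, at 89.0%, 93.7% and 93.8% of the Igkv and Iglv counts in KO1, KO2 and KO3, against 89.6%, 89.0% and 95.4% in WT1, WT2 and WT3. The constant and the variable rows thus gave each library a similar kappa share, although they are counted from different exons.

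Per kilobase of annotated transcript, the summed Igkv level was 71.8% to 73.2% of that of Igkc in the KO libraries and 76.4% to 85.6% in the WT libraries. The same quantity for Iglv against Iglc1, Iglc2 and Iglc3 was 52.2% to 56.2% in KO and 60.5% to 68.6% in WT. Heavy-chain segments fell further behind: taking the shortest transcripts of Igha and Ighm, the summed Ighv level per kilobase was 12.0% to 13.9% of theirs in KO, and 13.9%, 26.4% and 13.9% in WT1, WT2 and WT3. WT2 stood apart in this ratio. With the longest transcripts it was 25.2% to 30.3% in KO and 29.0% to 58.0% in WT. The size of the ratio, and the order of KO2 and WT1, thus depended on the choice of transcript, while WT2 was highest with both. Only Ighv segments with a row in the deposited table enter this sum, and their numbering has gaps, with no Ighv4 segment among them. The part of segments without a row in the low ratio was not tested.

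Of the other isotypes, Ighg2b was at 4.535, 12.1 and 7.20 CPM in KO1, KO2 and KO3, against 3.11, 8.52 and 6.004 CPM in the WT libraries 1 to 3. This row was not called (edgeR, adjusted p = 0.872). Ighg2c was present in 2 libraries, with 134 counts in KO2 and 70 in KO3, and was at 0 in KO1 and in every WT library. It did not pass the filter for edgeR, its adjusted p was 0.0334 in DESeq2, and it was 0.0347 in the authors' deposited table. Ighg3 had 15 counts, all in WT3, and Ighe 4, all in WT2. Ighd, which marks mature B cells before class switching, had 25 counts over KO and 9 over WT.

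Few segments dominated each pool. The smallest number of segments that together held at least 50% of the variable-segment counts was 8, 9 and 10 in KO1, KO2 and KO3, against 5, 9 and 9 in WT1, WT2 and WT3. The mean was 9.0 ± 1.0 in KO and 7.67 ± 2.31 in WT (SD, n = 3 each), and WT1 alone lay outside the range of the other 5 libraries. For 80% of the counts, 24, 25 and 29 segments were needed in KO1, KO2 and KO3, and 16, 29 and 25 in WT1, WT2 and WT3. The effective number of segments (the inverse of the summed squared shares) was 21.3, 19.8 and 22.4 in KO1, KO2 and KO3, against 12.4, 21.8 and 19.0 in WT1, WT2 and WT3. WT1 was the most concentrated pool by each of these measures, and it also had the fewest variable-segment counts, 5634 against 10198 to 41016 in the others. The part of that depth in its narrow usage was not tested.

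**Figure D2:**
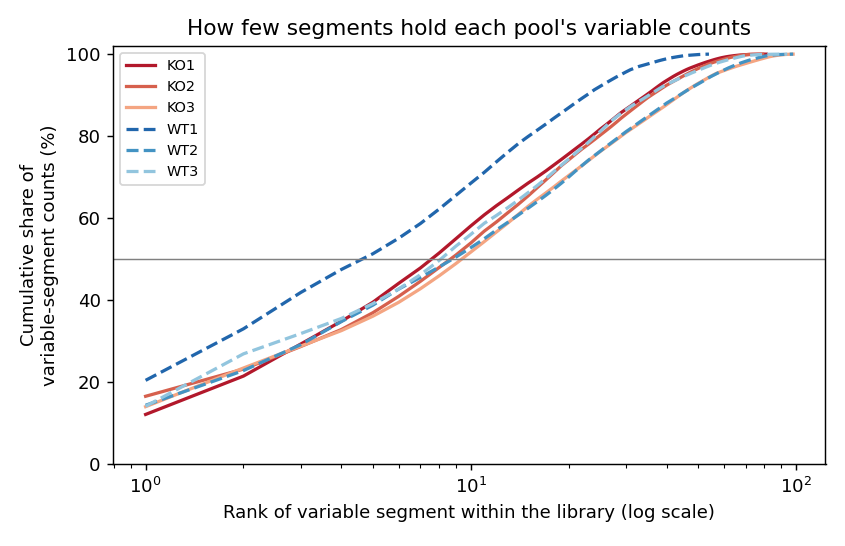
Cumulative share of the variable-segment counts (percent) against the rank of the segment within its library (log scale), with KO libraries as solid and WT libraries as dashed lines and a grey line at 50%. WT1 crosses 50% at 5 segments, and the other 5 libraries cross it at 8 to 10.

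The leading segment held 12.15%, 16.6% and 14.0% of the variable-segment counts in KO1, KO2 and KO3, against 20.5%, 14.4% and 14.1% in WT1, WT2 and WT3. Igkv1-117 led in KO2, KO3 and WT1, and Igkv1-110 in KO1, WT2 and WT3, so neither group had a leading segment of its own. Since these 2 segments share most of their sequence, their sum is the safer quantity. Together they had 3286 of 16466 counts in KO1. Their summed share was 23.2% and 23.5% in KO2 and KO3, against 33.0%, 18.3% and 26.9% in WT1, WT2 and WT3. Within the sum, the part given to Igkv1-110 ran from 28.6% in KO2 to 60.9% in KO1, and from 38.0% in WT1 to 78.6% in WT2.

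Grouped by the first part of the name, the segments fell into 37 subgroups, and the Igkv1 subgroup led every library. It held 22.6%, 26.7% and 27.9% of the variable-segment counts in KO1, KO2 and KO3, against 38.8%, 21.9% and 28.6% in WT1, WT2 and WT3. The next by mean share were Igkv6, at 8.20 ± 0.75% in KO and 6.61 ± 0.71% in WT, and Igkv4, at 5.84 ± 1.05% in KO and 8.69 ± 3.97% in WT (SD, n = 3 each). At the level of subgroups 4 were enough to hold 50% of the counts in each KO library, against 3, 5 and 4 in WT1, WT2 and WT3.

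The leading heavy-chain segments were as follows. Ighv1-53 was the top Ighv segment in KO1, KO2 and KO3, at 15.7%, 16.4% and 14.5% of the Ighv counts. In KO2 it was close to the next, Ighv1-64 at 15.35%, within its 95% Wilson interval of 14.6% to 18.3%. In WT1, WT2 and WT3 the leaders were Ighv1-64 at 21.6%, Ighv9-3 at 26.1% and Ighv2-2 at 29.7%. WT1 and WT3 shared their top 2 segments, Ighv1-64 and Ighv2-2, in reverse order. Pearson's r of the Ighv shares was 0.60 for WT1 and WT3, near the 0.59 of KO1 and KO2 and the 0.63 of KO1 and KO3. Ighv9-3 was almost confined to WT2, with 865 counts there, against 13, 33 and 38 in KO1, KO2 and KO3 and 15 and 12 in WT1 and WT3. Its log2 fold change of -4.20 (SE 1.60; edgeR, adjusted p = 0.491) became 0.65 without WT2. Ighv2-2 was at 9.38, 4.98 and 4.63 CPM in KO1, KO2 and KO3, against 12.3, 7.49 and 80.9 CPM in WT1, WT2 and WT3. WT3 stood far above the rest (log2 fold change -2.41, SE 0.84; edgeR, adjusted p = 0.486). Without WT3 the log2 fold change was -0.64. Ighv1-53 itself was at 16.6, 15.4 and 10.9 CPM in KO1, KO2 and KO3, against 1.13, 9.95 and 19.5 CPM in WT1, WT2 and WT3, so its level overlapped between the groups (log2 fold change 0.48, SE 0.80; edgeR, adjusted p = 0.888).

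The lambda chain was nearly all Iglv1. It held 99.7%, 99.9% and 97.5% of the Iglv counts in KO1, KO2 and KO3, against 99.2%, 98.0% and 90.1% in WT1, WT2 and WT3. Its level was 68.5, 42.1 and 34.05 CPM in KO1, KO2 and KO3, against 47.0, 133.5 and 85.6 CPM in WT1, WT2 and WT3 (log2 fold change -0.88, SE 0.40; edgeR, adjusted p = 0.542). The other 2 segments had few counts. Iglv2, which differs from Iglv1 at 11 of 351 coding bases, was at 0.0608 to 0.876 CPM in KO, against 0.377, 0.718 and 8.16 CPM in WT1, WT2 and WT3. Its log2 fold change was -3.17 (SE 1.52; edgeR, adjusted p = 0.549), and it was -0.68 without WT3 and -5.21 without KO3. Iglv3 had 2 counts over KO (both in KO1) and 41 over WT, with 0, 19 and 22 in WT1, WT2 and WT3.

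**Figure D3:**
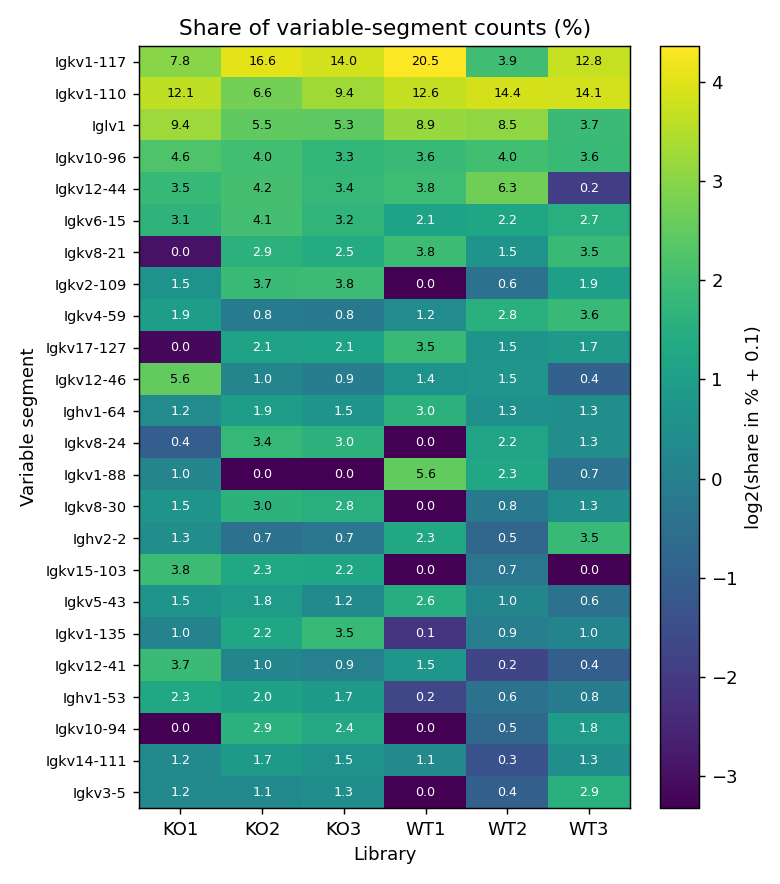
Share of each library's variable-segment counts (printed in percent, coloured on a log2 scale after adding 0.1) for the 24 segments with the highest mean share. Igkv1-117, Igkv1-110 and Iglv1 lead, and below them single libraries stand apart in both groups: Igkv10-94 is at 0.0% in KO1 and WT1, Igkv1-88 at 0.0% in KO2 and KO3 and 5.6% in WT1, and Igkv3-5 at 1.1% to 1.3% in KO, against 0.0%, 0.4% and 2.9% in WT1, WT2 and WT3.

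The segments found differed between pools. Of the 128 segments with counts, 34 were found in all 6 libraries, and these held 63.5% to 68.7% of the variable-segment counts in KO and 63.7% to 83.5% in WT. The other 94 were at 0 in at least 1 library, and 12 were found in 1 library only. A segment could be at 0 in a pool and carry a large count in another: Igkv3-12 had 0, 116 and 125 counts in KO1, KO2 and KO3, against 0, 0 and 1426 in WT1, WT2 and WT3. Igkv10-94 had 0, 365 and 242 counts in KO1, KO2 and KO3, against 0, 75 and 741 in WT1, WT2 and WT3. Igkv8-21 had 5, 370 and 260 counts in KO1, KO2 and KO3, against 213, 229 and 1430 in WT1, WT2 and WT3, so that KO1 alone was low. These 3 were chosen after their values were seen.

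KO2 and KO3 used nearly the same segments. Adding up the smaller of the 2 shares over all segments, the usage of KO2 and KO3 overlapped by 87.55%, while the other 14 pairs of libraries overlapped by 52.3% to 63.55%. Across the 128 segments, Pearson's r of the shares was 0.97 for KO2 and KO3 and 0.57 to 0.86 for the other 14 pairs. It was 0.96 within Ighv, against -0.02 to 0.63. These correlations are descriptions across segments that share a library, and all pairs share the high Igkv1 segments. Of 94 segments with at least 50 counts in some library, 9 were found in only 1 of KO2 and KO3, against 18 to 41 for the other pairs.

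KO2 and KO3 shared 22 segments that were at 0 in KO1, and 4 of these were also at 0 in all WT libraries. Among them was Igkv1-122, with 162 and 93 counts in KO2 and KO3 (chosen after its values were seen). Chi-square per degree of freedom over the segments was 9.55 between KO2 and KO3, against 45.7 to 189 between the others, and over all genes outside the immunoglobulin rows it was 13.8 against 48.5 to 144. These values cover counting error only, and separate amplifications of the same RNA could also differ by more than that. KO2 and KO3 were kept as 2 libraries because the labels give them as separate samples from different sort batches, and the fit was also run with their counts summed. Whether these pools shared material was not tested.

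**Figure D4:**
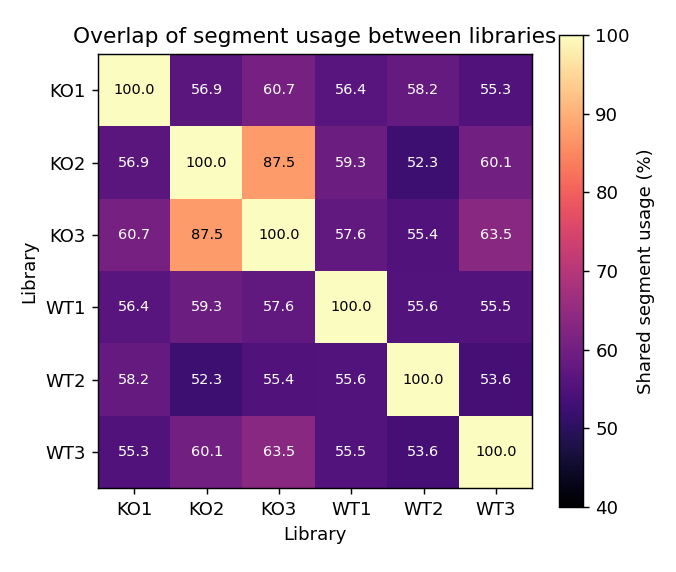
Shared segment usage between libraries, as the sum over variable segments of the smaller of the 2 shares (percent). KO2 and KO3 share 87.55%, and every other pair shares between 52.3% and 63.55%.

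KO was compared with WT row by row, in a fit over all 12557 genes that passed the filter on low counts. Among the immunoglobulin rows, 84 of 222 passed that filter, 24 of them Ighv, 51 Igkv, 2 Iglv and the 7 constant or joining-chain rows. Of these 84, 0 were called higher or lower in KO (edgeR's quasi-likelihood test, adjusted p under 0.05 over all genes), where 0.0239% of all tested genes were called, 0.0159% higher and 0.00796% lower in KO. The smallest adjusted p was 0.397. At an unadjusted p under 0.05 there were 17 rows, 20.2% of those tested, 15 of them lower and 2 higher in KO, against 9.37% of all tested genes, with 4.36% lower in KO. DESeq2 called 6 of the 96 rows to which it gave an adjusted p, against 1.89% of all genes. With limma-voom and quality weights 1 row was called, against 2 of all 12557 genes.

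The log2 fold change was below 0 in 68 of the 84 rows (81.0%), with a median of -0.98, against 52.6% of all tested genes with a median of -0.04. By class, 19 of 24 Ighv, 41 of 51 Igkv, 2 of 2 Iglv and 6 of 7 constant or joining-chain rows were below 0. This lean was smaller without WT2 and smallest, among the libraries left out, without WT3. Without WT2, 60 of 94 rows (63.8%) were below 0 with a median of -0.70, against 50.3% of all genes. Without WT3, 57 of 100 rows (57.0%) were below 0 with a median of -0.39, against 50.6% of all genes, and in limma-voom with quality weights 54.8% were below 0 with a median of -0.20, against 46.7%. Groups did not overlap in 13 rows, 15.5% of those tested, where 17.7% of all tested genes did not overlap. Of these, 10 rows were lower in KO (11.9%, against 8.01% of all genes) and 3 were higher (3.57%, against 9.68%). Immunoglobulin rows share the same 6 pools and are not independent of each other.

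**Figure D5:**
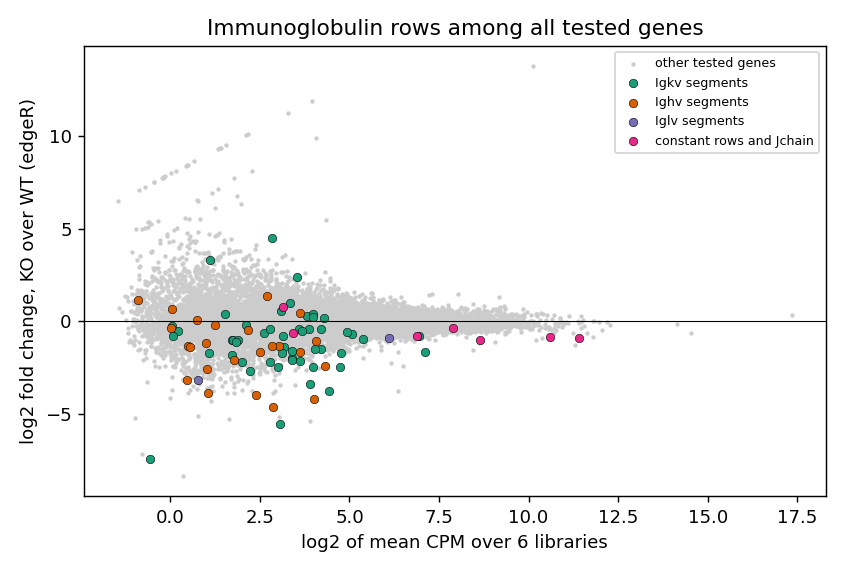
Log2 fold change of KO over WT (edgeR) against the log2 of the mean CPM over the 6 libraries for all 12557 tested genes (grey) and the 84 tested immunoglobulin rows (coloured by class). Most coloured points lie below 0, with a median of -0.98, and none was called.

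The rows with the smallest p among those lower in KO were Igkv3-1, Ighv1-76 and Igkv1-110. Igkv3-1 had 0 counts in each KO library, against 8, 25 and 13 in WT1, WT2 and WT3. Against a floor of 3 counts over the KO group this is at least 22.2-fold lower in KO, and it was not called (edgeR, adjusted p = 0.397). Ighv1-76 was at 1.64, 0.0608 and 0.125 CPM in KO1, KO2 and KO3, against 6.97, 8.11 and 14.3 CPM in WT1, WT2 and WT3. Its log2 fold change was -3.95 (SE 1.17; edgeR, adjusted p = 0.435; DESeq2, adjusted p = 0.0193), and it was -6.60 without KO1. The groups did not overlap in either segment. Igkv1-110 was at 88.9, 50.8 and 60.2 CPM in KO1, KO2 and KO3, against 66.7, 227 and 329 CPM in WT1, WT2 and WT3, with WT1 inside the KO range (log2 fold change -1.64, SE 0.49; edgeR, adjusted p = 0.436; DESeq2, 0.0499). For its near-identical partner Igkv1-117 the log2 fold change was -0.77 (SE 0.52; edgeR, adjusted p = 0.660), and it was 0.10 without WT3.

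Those with the smallest p among the rows higher in KO were Igkv4-74, Igkv6-32 and Igkv15-103. Igkv6-32 was at 19.7, 8.50 and 12.5 CPM in KO1, KO2 and KO3, against 0, 1.85 and 0 CPM in WT1, WT2 and WT3. All 3 KO libraries were above all WT libraries, and the segment is distinct from the others of the table, with 97.9% of its stretches of 31 bases private. The log2 fold change was 4.52 (SE 1.45; edgeR, adjusted p = 0.460; DESeq2, adjusted p = 0.0416). Igkv4-74 was at 2.36, 5.71 and 3.63 CPM in KO1, KO2 and KO3, against 0.282, 0.718 and 0.170 CPM in WT1, WT2 and WT3 (log2 fold change 3.32, SE 1.02; edgeR, adjusted p = 0.436; DESeq2, 0.0365), but 33.0% of its stretches were private. Igkv15-103 was at 27.5, 17.4 and 13.8 CPM in KO1, KO2 and KO3, against 0, 11.2 and 0.0566 CPM in WT1, WT2 and WT3, where WT2 came close to the KO range (log2 fold change 2.40, SE 1.49; edgeR, adjusted p = 0.633). Without WT2, which held 18 of the 18 WT counts of Igkv6-32 and 109 of the 110 of Igkv15-103, the fitted log2 fold changes were 10.82 and 8.85. With RNA integrity as a covariate they were 9.35 and 8.39. Such fitted values depend on the prior count where WT is at or near 0, and neither segment was called in these fits.

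In the authors' deposited table, 6 of the 96 rows with an adjusted p were under 0.05, and they are named for that reason. They were Ighv7-1, Igkv4-74, Igkv6-14, Ighv1-76, Igkv3-1 and Ighv1-82, with adjusted p from 0.0146 for Ighv7-1 to 0.0347 for Ighv1-82 in the authors' deposited table. The same table gave Igha a log2 fold change of -0.97 with an adjusted p of 0.344. The share of all genes under 0.05 in that table was not worked out, so these 6 rows have no background beside them. For scale, the DESeq2 fit run here called 1.89% of all genes. Ighv7-1, a V segment pseudogene in RefSeq, had 129, 8 and 19 counts in KO1, KO2 and KO3 and 0 in each WT library, at least 36.0-fold higher in KO against the floor of 3 counts over WT. Igkv6-14 had 0 counts in each KO library, against 0, 79 and 65 in WT1, WT2 and WT3, at least 69.4-fold lower in KO. WT1 was at 0 for Igkv6-14 as well, so the groups overlapped there, while for Ighv7-1 they did not.

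Among segments at 0 over a whole group, Ighv1-62-2 had the highest count, with 0 in each KO library, against 0, 120 and 537 in WT1, WT2 and WT3, at least 316-fold lower in KO. Its coding sequence differs from that of Ighv1-71 at 1 of 359 bases, in capitals in the first 60 bases below.
Ighv1-62-2 (chr12:115446409-115446869): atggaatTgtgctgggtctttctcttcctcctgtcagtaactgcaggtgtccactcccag
Ighv1-71 (chr12:115742205-115742647): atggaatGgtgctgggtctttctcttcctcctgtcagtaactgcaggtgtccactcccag
Both lie on the minus strand of chromosome 12. Summed, the pair had 18, 0 and 0 counts in KO1, KO2 and KO3, against 0, 156 and 604 in WT1, WT2 and WT3, so that KO1 was no longer at 0 and the bound no longer applied.

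Of the 62 V segment pseudogenes by RefSeq biotype, 4 had counts. Ighv7-3 was the most abundant, with 227, 178 and 116 counts in KO1, KO2 and KO3, against 83, 0 and 52 in WT1, WT2 and WT3, and it was the third Ighv segment in each KO library. The others were Ighv7-1, Igkv14-126 and Igkv12-40.

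Markers of the cells that make antibody were read beside these values. Of 18 plasma cell genes, 17 were tested, 5 above and 12 below 0 (median of the log2 fold changes -0.27), and 0 were called (0.0239% of all genes). Their summed level was 1825, 2445 and 2305 CPM in KO1, KO2 and KO3, against 2249, 3554 and 2502 CPM in WT1, WT2 and WT3. Most of it came from Irf4, Prdm1, Edem1 and Ell2. Treg cells and other T cells also express Irf4, Prdm1, Xbp1, Slamf7 and Cd38, so the sum does not measure plasma cells alone. The defining genes were low. Sdc1, the surface proteoglycan syndecan-1 of plasma cells, was at 3.16, 1.336 and 5.26 CPM in KO1, KO2 and KO3, against 8.38, 10.8 and 5.72 CPM in WT1, WT2 and WT3, without overlap (log2 fold change -1.35; edgeR, adjusted p = 0.581). Mzb1, an endoplasmic reticulum chaperone for immunoglobulin, was at 4.98, 7.29 and 7.63 CPM in KO1, KO2 and KO3, against 5.74, 1.64 and 8.21 CPM in WT1, WT2 and WT3. Derl3, of protein degradation at the endoplasmic reticulum, was at 4.001 to 11.4 CPM in KO and 5.55 to 7.49 CPM in WT. Tnfrsf17, the receptor BCMA, had 24 counts over KO (3, 16 and 5 in KO1, KO2 and KO3) and 0 over WT. It was thus without overlap in the direction opposite to Sdc1, and it did not pass the filter on low counts. Among all tested genes, 17.7% did not overlap between the groups. Slamf7, a surface receptor of plasma cells and other lymphocytes, was at 16.2, 13.8 and 11.6 CPM in KO1, KO2 and KO3, against 18.2, 33.0 and 20.4 CPM in the WT libraries, without overlap (log2 fold change -0.78; edgeR, adjusted p = 0.573). Pou2af1, a coactivator in B lineage cells, had the smallest p of the list, with a log2 fold change of -1.02 (edgeR, adjusted p = 0.522) and overlap between the groups. Xbp1, the transcription factor of the secretory programme, was at 131 to 151 CPM in KO and 101 to 219 CPM in WT. The part of plasma cells in the immunoglobulin level was not tested.

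Of 18 B cell genes, 9 were tested, 6 above and 3 below 0 with a median of 0.14, and 0 were called (0.0239% of all genes). Their summed level was 71.0, 98.9 and 87.0 CPM in KO1, KO2 and KO3, against 36.7, 114 and 86.8 CPM in WT1, WT2 and WT3. Of the defining genes, Pax5, a transcription factor of the B cell lineage, had 10 counts over KO and 1 over WT. Ms4a1, the gene of CD20, was at 1.78 to 3.40 CPM in KO and 2.04 to 3.28 CPM in WT. Other B cell genes went in different directions. Cd79a, a chain of the B cell receptor complex, was at 1.64, 1.52 and 2.32 CPM in KO1, KO2 and KO3, against 0.471, 1.13 and 17.2 CPM in the WT libraries, with WT3 highest. Its partner chain Cd79b was at 6.67, 15.4 and 13.9 CPM in KO1, KO2 and KO3, against 0, 1.23 and 4.64 CPM in the WT libraries, without overlap (log2 fold change 2.58; edgeR, adjusted p = 0.542). Cd22, an inhibitory receptor of B cells, was at 3.57 to 4.01 CPM in KO and 0.0566 to 2.56 CPM in WT, also without overlap (edgeR, adjusted p = 0.706). Tnfrsf13c, the BAFF receptor, was at 3.22 to 5.82 CPM in KO and 6.26 to 13.5 CPM in WT, without overlap in the other direction. The Treg and T cell genes summed to 7848 to 8673 CPM in KO and 7901 to 8760 CPM in WT, and Foxp3 was at 1600, 1124 and 1364 CPM in KO1, KO2 and KO3, against 1382, 566 and 1176 CPM in WT1, WT2 and WT3. Macrophage and dendritic cell genes summed to 283 to 627 CPM in KO and 202 to 304 CPM in WT. All 10 tested were above 0 with a median of 0.98, and 0 were called by edgeR (0.0239% of all genes). Of these, Itgax had an adjusted p of 0.0522 in DESeq2 and 0.0315 in the authors' deposited table. The epithelial list summed to 74.8 to 159 CPM in KO and 23.2 to 50.2 CPM in WT. Of 9 tested, 7 were above and 2 below 0 with a median of 1.67, and edgeR called 1, against 0.0239% of all genes. The called gene was Fcgbp, a mucus protein (edgeR, adjusted p = 0.0169). DESeq2, which called 1.89% of all genes, also called Clca1 (adjusted p = 1.72e-07) and Zg16 (adjusted p = 2.22e-05). Both are products of mucus-secreting cells and were higher in KO. The 2 below 0 were Epcam and Cdh1, adhesion proteins of epithelium, with log2 fold changes of -0.89 and -1.36, and they were not called. The part of these other cells in the comparison was not tested.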

How the data were processed

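Bulk RNA-seq covered 6 libraries. Per the submitters' processing notes, the tools were Salmon 1.4.0, DESeq2 1.34.0, fastp 0.20.0 and R 4.1.2, without role or order. The build, annotation and strand setting were not given in the sources used here. The deposited table held estimated counts per gene, read as rounded and not normalized. It also held the authors' log2 fold change and adjusted p-value, as named per the file headers and positive where KO is higher. In a second table, 6 value columns matched no sample and were not used. Reads of rearranged or mutated variable exons need not align to germline segments, and reads of similar segments are shared out by estimation.

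Rows sharing an Entrez identifier were summed (71 rows fewer, 32090 genes). filterByExpr (minimum count 10, minimum total 15) kept 12557 genes. edgeR 4.0.16 (R 4.3.3) gave TMM scaling and a quasi-likelihood fit on genotype alone, with Benjamini-Hochberg adjustment at 0.05 over all genes. The script was tested on simulated data. SE is the log2 fold change over the square root of F. DESeq2 1.42.0 and limma 3.58.1 were alternatives, with other scalings and filters, a replicate block, batch A and RNA integrity as terms, KO2 and KO3 summed, and each library left out. Leaving out the ribosomal row Rn18s-rs5, which held 9.86% to 21.5% of counts, and the value within batch A were added after the data were seen. Same-numbered KO and WT libraries did not deviate together (r of 0.01, 0.05 and 0.03). With 3 libraries per group this check cannot exclude pairs, and KO1 and WT1 share sort batch A. The main fit took no pairs.

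The members and lists were chosen with earlier results of these data known. Named segments are all constant rows and Jchain, each library's top segment per class, those of highest mean share (5 Ighv, 5 Igkv and 3 Iglv) and the 3 of smallest p in each direction. Other lists are described by counts and medians. Sums and shares over members get no test. Where a group is at 0, folds use a floor of 3 counts over that group. Wilson intervals and floors cover counting error only. The p-values measure the spread between pools and take KO2 and KO3 as separate pools. If those shared material, the spread within KO would be understated. Sequences are from GENCODE M21 (GRCm38), which need not be the authors' annotation, and coordinates locate the sequences shown. Of 6 other isotypes, 5 were found, and Ighg1 was not analysed here. A B cell gene of the marker list is not reported here by name.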

Additional observations from a re-analysis of the deposited data

How the results depend on the processing

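No immunoglobulin row was called in 16 of the 18 alternative fits. DESeq2 called 6 (Ighv1-76, Ighv7-1, Igkv1-110, Igkv4-74, Igkv6-14 and Igkv6-32) and limma-voom with quality weights called 1 (Igkv1-88). Over the libraries left out in turn the number called was 0 in each fit. Over all genes, 3 were called in the main edgeR fit, 9 with no filter, 255 with DESeq2, and 1 with RNA integrity as a covariate or with KO2 and KO3 summed. Leaving out each library gave 1 to 4. With the replicate number as a block, 3 genes and 0 immunoglobulin rows were called, and the smallest adjusted p of a row was 0.568. The pairing check found no pairs, but with 3 libraries per group it cannot exclude them.

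Of 429 values of named rows, 412 kept direction and side, 13 reversed, and 4 passed under DESeq2 only. The reversals, as log2 fold changes, were Iglc2 without WT3 (0.30), Iglc3 without KO1 (-0.75) and with limma-voom (-0.52), Ighv1-53 without WT1 (-0.06), Ighv9-3 without WT2 (0.65) and with RNA integrity (0.87), Ighv10-3 with limma-voom (0.03), and Igkv1-117 (0.10) and Igkv6-15 (0.13) without WT3. Igkv12-44 reversed with limma-voom (0.91), the replicate block (0.33), RNA integrity (1.18) and without WT2 (1.11). With each library left out in turn, these rows ran from -1.0 to 0.30 (Iglc2), -0.75 to 1.25 (Iglc3), -0.06 to 1.37 (Ighv1-53), -4.78 to 0.65 (Ighv9-3), -1.17 to 0.10 (Igkv1-117), -1.19 to 1.11 (Igkv12-44) and -0.98 to 0.13 (Igkv6-15). The cause was not tested.

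The log2 ratio of the sum, -0.89, was 0.54 within batch A and ran from -1.27 to -0.42 with libraries left out. At 80% in place of 50%, 26.0 segments were needed in KO and 23.3 in WT. The largest share was 17.7% in KO and 21.3% in WT within Igkv, and 25.8% in WT within Ighv. With 773 to 4806 Ighv counts per library, a segment of few counts can be missed. A segment without a row in the deposited table cannot appear among the leaders or in the numbers of segments.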

Other observations

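Of 13 genes for immunoglobulin receptors and for the factors that rearrange or mutate immunoglobulin genes, 7 were tested, 6 above and 1 below 0 (median of the log2 fold changes 0.45), and 0 were called (edgeR, against 0.0239% of all genes). Fcgr3, an Fc receptor of this list, did not overlap between the groups and had a log2 fold change of 2.24 (edgeR, adjusted p = 0.472). Its adjusted p was 0.039 in DESeq2, which called 1.89% of all genes, and 0.0173 in the authors' deposited table. The summed level of the list was 241, 171.5 and 185 CPM in KO1, KO2 and KO3, against 151, 218 and 213 CPM in the WT libraries. Pigr, the epithelial receptor that carries IgA and IgM into the gut lumen, was at 11.9, 8.02 and 11.9 CPM in KO1, KO2 and KO3, against 5.93, 3.59 and 6.34 CPM in WT1, WT2 and WT3. Its groups did not overlap, and the log2 fold change was 1.0 (edgeR, adjusted p = 0.592). Pigr is itself a member of the epithelial list described above, so its values are part of that list's sum.

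The 13 J segments, the short pieces that follow the variable segment in a rearranged gene, were nearly absent as rows of their own. Their summed level was 0.267, 0.486 and 0.0626 CPM in KO1, KO2 and KO3, against 0.377, 1.54 and 0.850 CPM in the 3 WT libraries. Of them, 0 passed the filter on low counts.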
